A study of Mus musculus with 6 samples.

Results

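The genes described here keep the sterols and lipids of a cell in balance, through the oxysterol receptors LXR and the sterol-regulated transcription factors SREBP. The set had 37 genes, listed by name for their roles in these pathways, and each was read from the row of the array that carries its symbol. Of these, 34 had a row assigned to a single gene, out of 19752 genes tested, and *Nr1h2*, *Acat2* and *Soat1* were not analysed here. Where a gene had more than 1 row, the brightest row over the 6 arrays was used.

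RNA came from mature CD4 single-positive (SP) thymocytes, sorted as Vα2hi CD24lo cells from OT-II mice, in which a transgenic T-cell receptor (TCR) restricted to MHC class II directs most cells to the CD4 lineage. In dKO cells both H3K27Me3 demethylases were missing, because floxed *Kdm6b* (Jmjd3) and *Kdm6a* (Utx) alleles had been deleted by Cre driven from a *Cd4* promoter. Wild-type cells came from Cre-negative mice, so that the genotypes also differed in Cre itself, and both carried OT-II. *Cd4*-Cre acts from the double-positive (DP) stage onward, so deletion preceded the sorted stage but not T-cell commitment. Each genotype was measured on 3 arrays. The sample records call them biological replicates without saying whether each was a separate mouse, and the tests therefore measure the spread between these arrays. The Methods state female adult mice for the study as a whole, except where noted, and the labels tie no age or sex to single arrays.

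Values are on the log2 scale, so that a difference of 1 is a 2-fold change. Arrays of 1 genotype correlated at 0.998 to 0.999 and arrays of different genotypes at 0.991 to 0.993. *Kdm6a* had values of 10.16, 10.11 and 10.20 in wild-type and 9.48, 9.40 and 9.58 in dKO cells (log2 fold change -0.67, limma adjusted p = 2.6e-05), and *Kdm6b* had a log2 fold change of -0.09 (limma adjusted p = 0.32), which is no measure of the deletion, since only some exons of each gene are removed. The 10 measured markers of CD4 SP T cells all lay above the upper quartile of genes, with mean values of 11.59 to 11.69 in wild-type and 11.61 to 11.63 in dKO arrays. Among them *Cd28* was higher (0.24) and *Cd5* (-0.43), *Zbtb7b* (-0.27) and *Lat* (-0.15) were lower. Markers of DP thymocytes averaged 6.94 to 7.20 in wild-type and 7.20 to 7.43 in dKO arrays, with 3 of 8 higher and 2 lower by the test. Of 11 markers of cell division, the replication genes *Mcm2* (0.48) and *Mcm5* (0.27) were higher and *Mki67* (-0.62) and *Top2a* (-0.48) lower. The test called 40.0% of the CD4 SP, 62.5% of the DP and 36.4% of the cell division markers. These shares stood beside 23.1% of all genes and 39.8% of genes brighter than the median gene. All 10 CD4 SP, 5 of the 8 DP and 8 of the 11 cell division markers were among those brighter genes.

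Cholesterol is made from acetyl-CoA through mevalonate, squalene and lanosterol. When sterols run low, SCAP carries SREBP proteins from the endoplasmic reticulum to the Golgi for cleavage, and the released factors switch on the genes of synthesis, while INSIG proteins hold the complex back when sterols are plentiful. LXR works in the opposite sense: oxysterols activate it, and its targets export cholesterol, reduce its uptake and remodel phospholipids. In T cells this balance is known to shift with activation, when growing cells need membrane.

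The sterol genes of dKO thymocytes moved in both directions, by small amounts apart from *Abca1*. Of 34 measured genes, 9 were higher and 4 lower in the dKO arrays with an adjusted p under 0.05 (limma, over all 19752 genes), and 21 did not pass. The genes that rose were *Abca1*, *Abcg1*, *Mvk*, *Fdft1*, *Sqle*, *Lss*, *Hsd17b7*, *Scd1* and *Stard4*, and those that fell were *Srebf2*, *Insig1*, *Hmgcs1* and *Ebp*. The share past the test, 38.2%, stood beside 23.1% of all genes, 13.1% of which were higher and 10.0% lower. It was near the 39.8% called among the genes brighter than the median gene, to which 33 of the 34 belonged. *Abca1* alone changed by 2-fold or more, as 0.805% of all genes did. The median log2 fold change was 0.04 over the set and 0.0057 over all genes. With cyclic loess normalization the counts were 7 higher and 5 lower, a more even split.

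**Figure D1:**
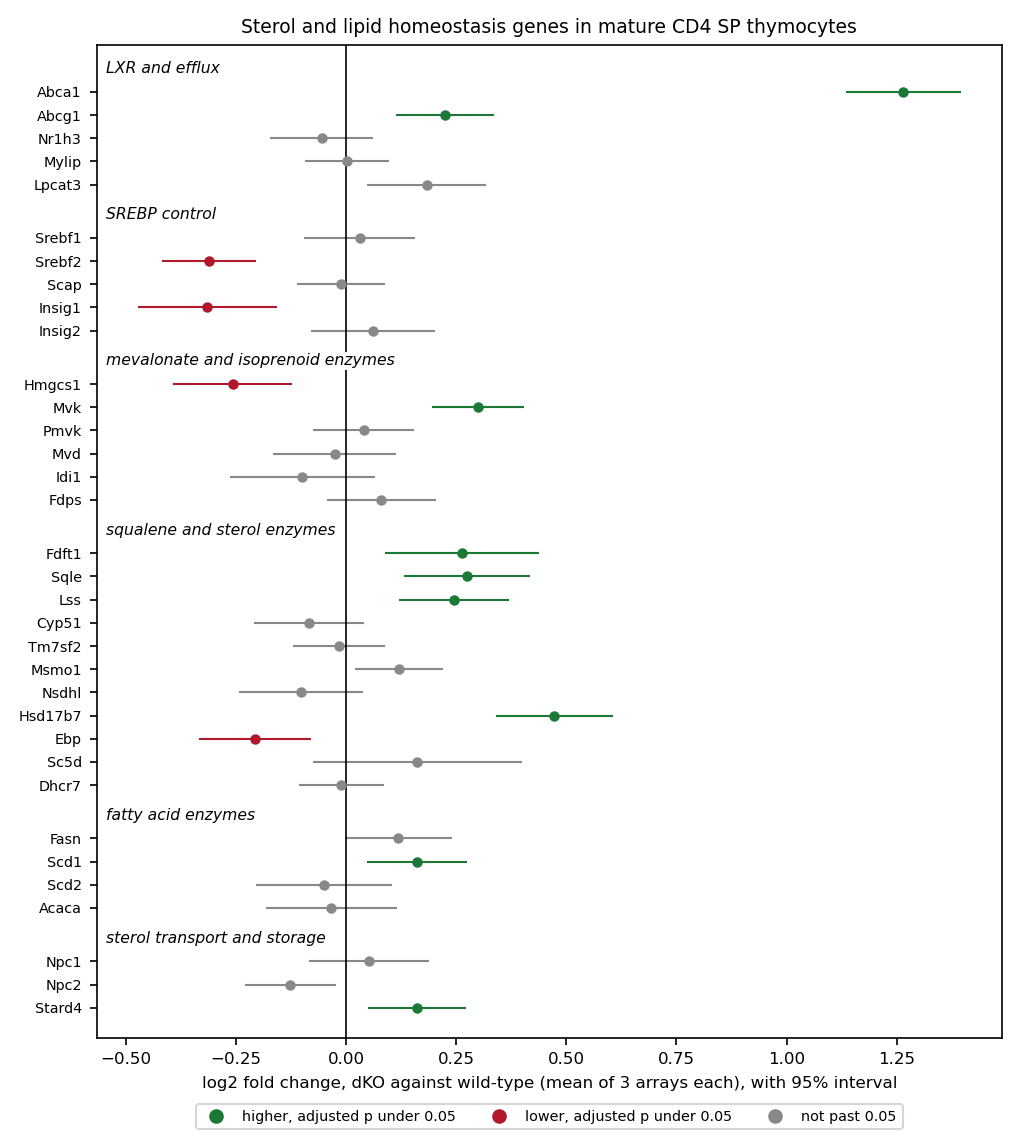
Log2 fold change of dKO against wild-type cells for the 34 measured genes, grouped by role, with points for the difference of the means of 3 arrays each, bars for the 95% interval from limma, and colour for direction among genes with an adjusted p under 0.05. *Abca1* stands at 1.27, while the other 33 genes lie between -0.32 and 0.47.

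Promoters are shown for *Abca1*, for the synthesis enzymes that changed most in each direction and for the SREBP control genes that fell, since NF-Y boxes stand in genes of both directions. Promoters were read from a RefSeq table (assembly GRCm38.p6) that holds 250 bases before and 50 after each annotated start, and 29 of the 37 genes had an entry. Only bases upstream of the start and outside protein-coding genes are printed, 5′ to 3′ on the strand of the gene. *Abca1* (minus strand, chr4:53159989-53160145), *Hsd17b7* (minus strand, chr1:169969243-169969455) and *Mvk* (plus strand, chr5:114444074-114444263) were higher in dKO cells. *Hmgcs1* (plus strand, chr13:119690101-119690350), *Ebp* (minus strand, chrX:8193513-8193762), *Srebf2* (plus strand, chr15:82147019-82147268) and *Insig1* (plus strand, chr5:28071162-28071411) were lower. The printed stretches of *Hsd17b7* and *Insig1* also overlap annotated long non-coding RNA genes. Capitals mark the NF-Y box CCAAT, which reads ATTGG on the other strand, and the core of the sterol response element TCACNCCAC.
Abca1: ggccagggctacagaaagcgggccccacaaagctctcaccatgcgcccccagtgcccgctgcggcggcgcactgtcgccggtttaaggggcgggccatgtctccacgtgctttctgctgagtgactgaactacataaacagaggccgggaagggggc
Hsd17b7: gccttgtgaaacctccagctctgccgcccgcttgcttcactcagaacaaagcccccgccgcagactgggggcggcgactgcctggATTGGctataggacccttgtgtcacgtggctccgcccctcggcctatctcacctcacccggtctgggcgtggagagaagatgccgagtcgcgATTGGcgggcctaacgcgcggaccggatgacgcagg
Mvk: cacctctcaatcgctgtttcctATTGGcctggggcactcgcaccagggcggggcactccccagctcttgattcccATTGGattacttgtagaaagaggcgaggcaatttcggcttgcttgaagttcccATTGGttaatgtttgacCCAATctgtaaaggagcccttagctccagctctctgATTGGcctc
Hmgcs1: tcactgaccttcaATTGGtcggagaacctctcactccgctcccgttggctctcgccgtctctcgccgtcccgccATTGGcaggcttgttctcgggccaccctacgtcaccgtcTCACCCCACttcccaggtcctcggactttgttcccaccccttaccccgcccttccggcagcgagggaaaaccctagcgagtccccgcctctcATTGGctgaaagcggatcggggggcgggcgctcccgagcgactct
Ebp: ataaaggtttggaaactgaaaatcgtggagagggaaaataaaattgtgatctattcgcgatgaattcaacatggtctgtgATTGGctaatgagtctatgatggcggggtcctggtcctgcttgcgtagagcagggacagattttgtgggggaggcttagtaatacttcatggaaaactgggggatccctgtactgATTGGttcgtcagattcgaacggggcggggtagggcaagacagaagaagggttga
Srebf2: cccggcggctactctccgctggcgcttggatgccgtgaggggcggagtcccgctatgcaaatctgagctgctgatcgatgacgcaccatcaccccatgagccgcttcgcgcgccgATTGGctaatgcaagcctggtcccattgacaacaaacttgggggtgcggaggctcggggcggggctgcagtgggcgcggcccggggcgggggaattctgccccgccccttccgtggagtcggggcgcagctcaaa
Insig1: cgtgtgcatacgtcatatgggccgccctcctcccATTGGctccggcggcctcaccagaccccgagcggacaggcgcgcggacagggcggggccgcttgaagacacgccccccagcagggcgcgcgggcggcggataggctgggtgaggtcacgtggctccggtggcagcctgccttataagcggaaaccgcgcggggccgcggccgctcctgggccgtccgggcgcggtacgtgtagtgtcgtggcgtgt

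NF-Y is a general factor that assists SREBP at many of its targets, and its box was in 24 of the 38 windows of the 29 genes (63.2%), against 37.4% of all 32851 promoter windows. Among the 17 synthesis enzymes with an entry, 15 had it, all but *Acat2* and *Acaca*. *Mvk*, which rose, had 5 boxes, the first at position -173 from the start, and *Hmgcs1*, which fell, had 4, of which the one at 11 lies past the start and is not printed. *Ebp*, which fell, had 2, and *Hsd17b7*, which rose, had 3, the last at -12 in the part not printed. The response element core, matched exactly apart from its open base N, was in 1 of the 38, that of *Hmgcs1*, at -137, and in 1.24% of all windows. The E box CACGTG was in 7 of the 38 windows (18.4%), those of *Abca1*, *Insig1* and *Hsd17b7* among them, against 7.15% of all windows. The Sp1 box GGGCGG was in 28 (73.7%), against 35.7%. These shares of all windows include genes of every level, and none was computed for the bright genes alone. The exact LXR direct repeat, a pair of AGGTCA sites on 1 strand with 4 bases between them, was in none of the 38 and in 0.0152% of windows. Every motif was searched on both strands, no searched motif is contained in another, and a match describes letters in the window, not binding. Sites that differ from a motif in any fixed letter were not searched. A window without a match may therefore still hold an imperfect LXR repeat or sterol response element.

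**Figure D2:**
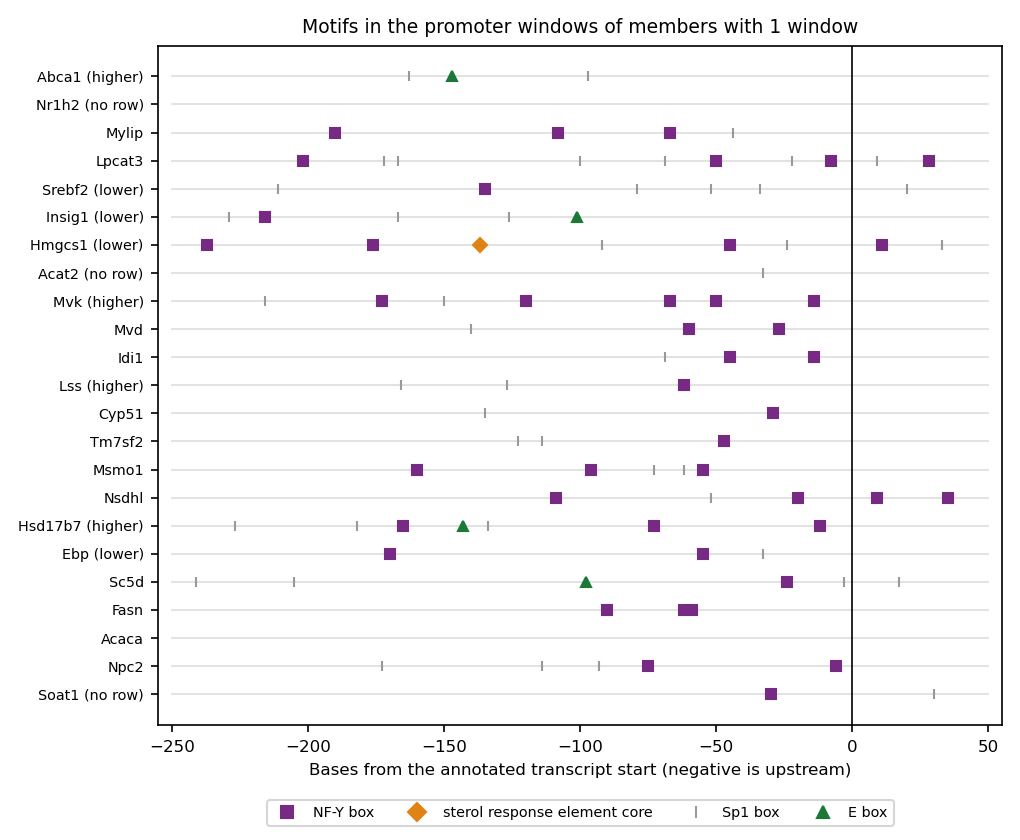
Positions of the searched motifs in the promoter windows of the genes that have a single window, with the distance from the annotated transcript start in bases on the horizontal axis and the direction of the gene in dKO cells in brackets. NF-Y boxes (squares) stand upstream of genes that rose, such as *Mvk* with 5, and of genes that fell, such as *Hmgcs1* with 4, and the sterol response element core (diamond) appears once, in *Hmgcs1*.

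Of the 5 measured genes grouped here under LXR and efflux, the 2 cholesterol exporters rose and the other 3 did not pass the test. *Nr1h2*, also in that group, was not analysed. The 40.0% called was near the 39.8% of genes brighter than the median gene, to which all 5 belonged, and above the 23.1% of all genes. *Abca1* encodes the transporter that loads cholesterol and phospholipid onto lipid-poor apolipoprotein A-I. Its values were 8.33, 8.42 and 8.41 in wild-type and 9.57, 9.63 and 9.76 in dKO arrays. The lowest dKO array was above the highest wild-type array by more than 1 log2 unit. The difference was 2.40-fold (log2 fold change 1.27, standard error 0.06, 95% interval 1.13 to 1.40, limma adjusted p = 5.4e-07), ranked 19 among all increases. In bulk RNA, more cells of a type and more RNA per cell cannot be told apart.

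*Abca1* is also abundant in macrophages, and the markers of those cells were therefore read on the same arrays. The 13 markers of macrophages and dendritic cells averaged 5.53 to 5.64 in wild-type and 5.50 to 5.81 in dKO arrays. *Csf1r*, the receptor that defines macrophages, had values of 5.41 to 5.49 in wild-type and 5.37 to 5.53 in dKO cells, and *Adgre1* of 4.72 to 4.75 and 4.69 to 4.79. Both were below the median of all genes, 6.30, as were 11 of the 13. *Lyz2*, which encodes lysozyme of myeloid cells, was higher (log2 fold change 0.81, limma adjusted p = 0.043, and 0.055 with all rows tested). It had 5.35, 5.43 and 5.03 in wild-type and 6.75, 6.02 and 5.48 in dKO arrays. *Cd68* and *Itgam* were lower (-0.31 and -0.78). *Cd74* and *H2-Aa*, genes of MHC class II presentation, fell from replicate 1 to replicate 3 in both genotypes and did not pass (0.49 and 0.41). *Cd74* had 6.83, 6.62 and 6.22 in wild-type and 7.73, 7.04 and 6.36 in dKO arrays. *H2-Aa* had 6.19, 6.08 and 5.80 against 7.11, 6.24 and 5.93. Of the DP markers, *Dntt*, which adds bases where TCR gene segments join, was higher (1.52), as were *Cd8b1*, a chain of the CD8 coreceptor (0.54), and *Cd1d1*, which presents lipids (0.44), without overlap. *Arpp21* was lower (-0.25), and *Rag1*, which cuts the TCR genes, was lower with overlapping genotypes (-0.55, limma adjusted p = 0.044, and 0.055 with all rows tested). The part of these genes in the result was not tested.

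*Abcg1* encodes the transporter that passes cholesterol to larger lipoproteins and moves it within the cell. Its values were 11.02, 11.08 and 11.10 in wild-type and 11.32, 11.32 and 11.23 in dKO arrays, so that the genotypes did not overlap. It was 1.17-fold higher (log2 fold change 0.22, standard error 0.05, limma adjusted p = 0.0084). *Lpcat3*, which puts polyunsaturated chains into phospholipids, did not overlap either, with 10.51, 10.60 and 10.69 against 10.73, 10.75 and 10.87, but missed the threshold (log2 fold change 0.18, limma adjusted p = 0.055). *Mylip*, the ubiquitin ligase that sends lipoprotein receptors for degradation, lay between 10.81 and 10.83 in both genotypes, with a difference of 0.0016 and an interval from -0.09 to 0.10. The receptor *Nr1h3* (LXRα) had 6.28, 6.36 and 6.43 against 6.33, 6.30 and 6.28 (-0.06, interval -0.17 to 0.06). The intervals of *Mylip* and of *Nr1h3* leave out changes as large as that of *Abcg1*. The interval of *Abca1* lies wholly above those of *Abcg1*, 0.11 to 0.33, and of *Lpcat3*, 0.05 to 0.32.

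Among the 5 genes that control SREBP, 2 fell and none rose. The 40.0% called was near the 39.8% of genes brighter than the median gene, to which all 5 belonged, and above the 23.1% of all genes. *Srebf2* encodes SREBP2, the factor that mainly drives cholesterol synthesis. Its values were 10.39, 10.45 and 10.45 in wild-type and 10.07, 10.15 and 10.15 in dKO arrays with a gap between the genotypes wider than the spread of either. Its mean in dKO cells was 80.6% of that in wild-type cells (log2 fold change -0.31, standard error 0.05, limma adjusted p = 0.0011). Another row, annotated to *Srebf2* together with other genes and therefore left out, had means of 9.15 in wild-type and 9.18 in dKO arrays. It did not pass (0.03, limma adjusted p = 0.84 over all rows). *Insig1*, itself a target of SREBP, encodes the protein that retains SCAP in the endoplasmic reticulum. It had 8.85, 8.82 and 8.66 in wild-type and 8.59, 8.40 and 8.39 in dKO arrays, where the lowest wild-type array came within 0.1 of the highest dKO array. Its mean in dKO cells was 80.4% of that in wild-type cells (-0.32, standard error 0.07, limma adjusted p = 0.0094).

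The paralogs of these genes gave no such difference. *Srebf1*, whose products favour fatty acid synthesis, had 8.86, 8.95 and 8.96 against 9.04, 8.95 and 8.87 (0.03, interval -0.10 to 0.16, with the sign turning under both other normalizations). *Insig2*, an INSIG that does not depend on SREBP, had 8.56, 8.66 and 8.74 against 8.73, 8.62 and 8.80 (0.06, interval -0.08 to 0.20). *Scap*, the escort, lay within 9.95 and 10.02 in all arrays (-0.01, interval -0.11 to 0.09). For *Srebf1* and *Insig2* the intervals do not meet those of *Srebf2*, -0.42 to -0.21, and *Insig1*, -0.47 to -0.16. The difference between paralogs itself was not tested.

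The enzymes that make sterols and fatty acids split in direction. Of 21 measured, 6 rose, 2 fell and 13 did not pass, with a median log2 fold change of 0.04. The 38.1% called was near the 39.8% of genes brighter than the median gene, to which 20 of the 21 belonged, and above the 23.1% of all genes. In the mevalonate branch, *Hmgcs1*, which forms HMG-CoA at the entry of the pathway, fell from 8.14, 8.01 and 8.01 to 7.87, 7.70 and 7.81, without overlap (-0.26, standard error 0.06, limma adjusted p = 0.012). *Mvk*, the mevalonate kinase, rose from 8.07, 8.02 and 8.01 to 8.35, 8.36 and 8.29. Its genotypes were farther apart than the spread of either, and the difference was 1.23-fold (0.30, standard error 0.05, limma adjusted p = 0.0012). The enzymes that follow in the branch, *Pmvk* (0.04), *Mvd* (-0.03), *Idi1* (-0.10) and *Fdps* (0.08), did not pass and their genotypes overlapped. The 2 rows of *Idi1* gave -0.10 and -0.03.

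Squalene and sterol enzymes held 4 of the increases and 1 decrease among 11. The 45.5% called stood beside 39.8% of genes brighter than the median gene, to which all 11 belonged, and 23.1% of all genes. The genotypes did not overlap in 54.5% of the 11, beside 57.3% of those brighter genes and 37.7% of all genes. *Hsd17b7*, a reductase that acts on sterol ketones, changed most, from 7.59, 7.56 and 7.56 in wild-type to 7.92, 8.13 and 8.08 in dKO arrays. The wild-type arrays lay within 0.03 of each other, and all dKO arrays were well above them, 1.39-fold on average (0.47, standard error 0.06, limma adjusted p = 3.2e-04). The enzymes from squalene to lanosterol also rose. *Fdft1*, the squalene synthase, had 8.63, 8.74 and 8.73 against 9.14, 8.81 and 8.95 (0.26, standard error 0.08, limma adjusted p = 0.036), and its second row gave 0.24. *Sqle*, the squalene epoxidase, had 6.88, 6.74 and 6.66 against 6.98, 7.03 and 7.10 (0.27, standard error 0.06, limma adjusted p = 0.011). *Lss*, which closes the rings of lanosterol, had 7.35, 7.29 and 7.26 against 7.51, 7.48 and 7.64 (0.25, standard error 0.06, limma adjusted p = 0.0099). In none of these 3 did the genotypes overlap, although *Fdft1* came close, with 8.74 in a wild-type and 8.81 in a dKO array.

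The other enzymes after lanosterol held 1 decrease and no increase. *Ebp*, which shifts a double bond within the sterol ring, fell from 8.91, 8.88 and 8.81 to 8.57, 8.66 and 8.74 (-0.21, standard error 0.06, limma adjusted p = 0.025). The demethylase *Cyp51* (-0.09), the reductases *Tm7sf2* (-0.02) and *Dhcr7* (-0.01) and the decarboxylating *Nsdhl* (-0.10) overlapped between genotypes. *Dhcr7* had the narrowest range of these, 8.95 to 8.99 over all 6 arrays. *Msmo1*, the methylsterol oxidase, did not overlap, with 8.15, 8.19 and 8.17 against 8.32, 8.25 and 8.30, but did not pass (0.12, limma adjusted p = 0.088). *Sc5d* could not be resolved, since its wild-type arrays ran from 8.06 to 8.52 (0.16, interval -0.08 to 0.40).

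Fatty acid enzymes and transport genes changed little. *Scd1*, a stearoyl-CoA desaturase, was called higher (4.45, 4.33 and 4.46 against 4.57, 4.60 and 4.56, log2 fold change 0.16, limma adjusted p = 0.045), but at the 13.1 percentile of genes it was among the dimmest genes, where differences are compressed. Its paralog *Scd2* had 11.84 to 12.10 in wild-type and 11.87 to 11.99 in dKO arrays (-0.05). Fatty acid synthase *Fasn* (0.12, limma adjusted p = 0.16) and the carboxylase *Acaca* (-0.03, and -0.17 from its second row) overlapped between genotypes. *Stard4*, which carries cholesterol through the cytosol, had 7.06, 7.00 and 6.94 against 7.18, 7.12 and 7.17 (0.16, standard error 0.05, limma adjusted p = 0.043). Of the proteins that release cholesterol from lysosomes, *Npc1* had 10.04 to 10.09 against 10.01 to 10.24 (0.05), and *Npc2* was below wild-type in every dKO array, at 10.08, 10.11 and 10.04 against 10.22, 10.22 and 10.17, without passing (-0.13, limma adjusted p = 0.077).

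**Figure D3:**
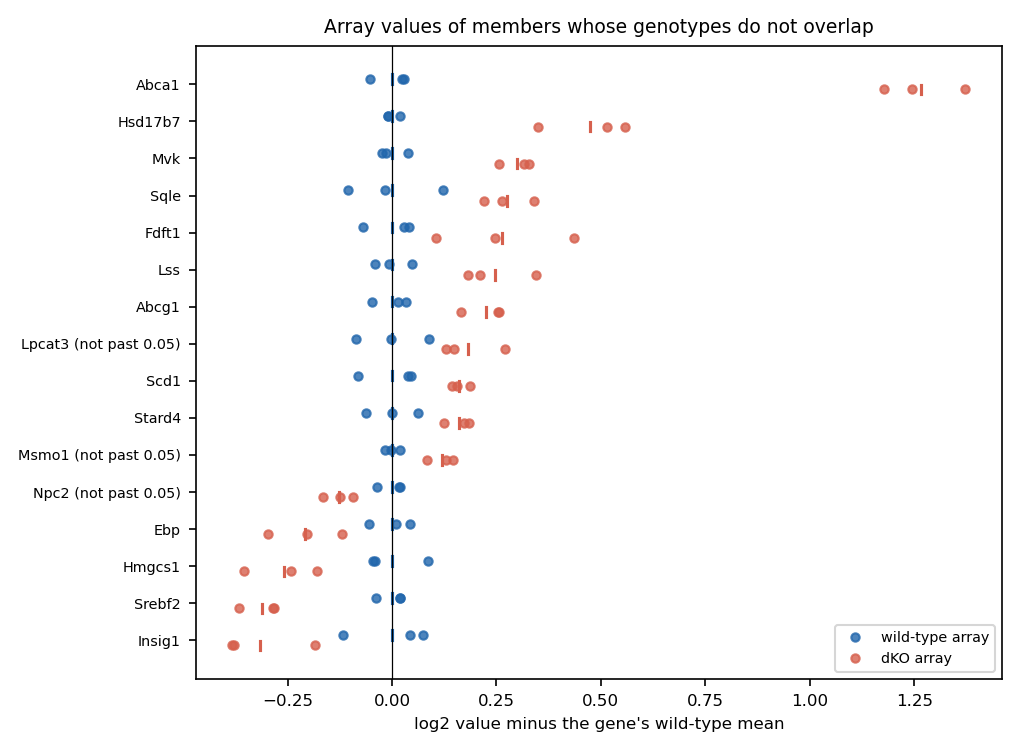
Values of each array, as the log2 value minus the wild-type mean of the gene, for the 16 genes whose genotypes do not overlap, with a dot per array and a short line at the mean of 3. *Abca1* stands far to the right, *Fdft1* shows the widest dKO spread, and *Lpcat3*, *Msmo1* and *Npc2* are separated by small gaps and did not pass the test.

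In all, 16 of the 34 genes (47.1%) had genotypes that did not overlap, 11 with dKO higher and 5 with dKO lower, beside 37.7% of all genes and 57.3% of the genes brighter than the median gene. The dKO arrays varied more than the wild-type arrays over the set, with a median SD of 0.08 against 0.05, and over all genes the medians were 0.06 and 0.06. Among the 13 called genes, *Abca1*, *Abcg1*, *Srebf2*, *Mvk* and *Hsd17b7* passed under all 15 alternative settings. *Insig1*, *Hmgcs1*, *Sqle* and *Lss* failed only when Student's t-test replaced limma, which also lost the other 4. *Fdft1* failed under quantile and cyclic loess normalization and when wild-type replicate 1, 2 or 3 or dKO replicate 1 or 3 was left out (limma adjusted p from 0.012 to 0.11 over the 6 omissions). *Ebp* failed without wild-type replicate 1 or 2 or dKO replicate 1 or 2 (limma adjusted p from 0.016 to 0.082). *Scd1* failed without any of the 6 arrays (limma adjusted p from 0.051 to 0.18) and *Stard4* without any array but wild-type replicate 1 (limma adjusted p from 0.035 to 0.13). *Stard4* also failed under quantile and cyclic loess normalization and with an intensity trend. *Lpcat3* passed without wild-type replicate 3 (limma adjusted p = 0.031) and missed without each of the others, up to 0.17.

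Other genes of the same pathways, 65 by name of which 56 had a row, also moved both ways. They gave 12 increases, 9 decreases and 35 that did not pass, 37.5% called, with a median log2 fold change of -0.01. This share stood between the 23.1% of all genes and the 39.8% of genes brighter than the median gene, to which 46 of the 56 belonged. Of 11 further genes, which include partners and targets of LXR and also oxysterol enzymes, 2 rose and 1 fell. The 27.3% called stood between the same shares, and 7 of the 11 were brighter than the median gene. *Rxra*, a partner of LXR, had 7.56, 7.61 and 7.37 against 7.96, 7.82 and 7.85 (log2 fold change 0.36, limma adjusted p = 0.0035). The brighter partner *Rxrb* had 9.14, 9.14 and 9.13 against 9.16, 9.24 and 9.17. It did not pass (0.06, limma adjusted p = 0.44). *Smpdl3a*, an LXR target in human cells that encodes a secreted phosphodiesterase, rose by 0.42. *Abca7*, a transporter related to *Abca1*, went the other way, from 8.60, 8.62 and 8.60 to 8.14, 8.20 and 8.15 (-0.45, limma adjusted p = 7.6e-05). The genotypes did not overlap in *Rxra*, *Rxrb*, *Smpdl3a* or *Abca7*. The intervals of *Abca1* and *Abca7*, the latter from -0.54 to -0.35, lie on opposite sides of 0.

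Of 6 genes for SREBP cleavage and for sterol-regulated degradation, 3 rose and 1 fell. The 66.7% called, in a list of only 6, stood beside 23.1% of all genes. It also stood beside 39.8% of genes brighter than the median gene, to which all 6 belonged. *Erlin1*, a membrane scaffold that restrains SREBP activation, had 6.63, 6.61 and 6.42 against 7.16, 7.24 and 7.14 (0.63, limma adjusted p = 8.8e-05), and its partner *Erlin2* rose by 0.19 (limma adjusted p = 0.048). *Pgrmc1*, which binds cytochrome P450 enzymes of the sterol pathway, rose by 0.44. *Rnf145*, a sterol-responsive ubiquitin ligase, fell by 0.22. Of 9 genes of the isoprenoid branches, *Rce1*, the protease that trims prenylated proteins, rose by 0.38 and *Pggt1b*, a subunit of a prenyltransferase, fell by 0.28. The 22.2% called in this list was near the share of all genes and below that of the brighter genes, to which all 9 belonged.

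Of 16 genes for acetyl-CoA supply and fatty acid chains, 2 rose and 3 fell. The 31.2% called stood between 23.1% of all genes and 39.8% of genes brighter than the median gene, to which 12 of the 16 belonged. *Fads1*, a front-end desaturase, rose from 8.29, 8.37 and 8.40 to 8.95, 8.97 and 9.11 (0.66, limma adjusted p = 3.0e-05). *Acss2*, which makes acetyl-CoA from acetate, fell from 10.03, 9.99 and 9.96 to 9.65, 9.51 and 9.42 (-0.47, limma adjusted p = 4.8e-04). *Elovl6*, an elongase, fell by 0.42, *Acsl4*, an acyl-CoA synthetase, fell by 0.20, and *Aacs*, which activates acetoacetate, rose by 0.24. *Acsl4* missed without dKO replicate 2 (limma adjusted p = 0.060, and 0.027 to 0.060 over the 6 omissions).

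Of 14 genes of sterol uptake, transport and esters, 4 rose and 3 fell. *Stard5*, a cytosolic sterol carrier, rose by 0.47, *Nceh1*, a cholesteryl ester hydrolase, by 0.40, *Cyb5r3*, which passes electrons to sterol enzymes, by 0.41 and *Tmem97*, which binds NPC1, by 0.26. *Gramd1b*, which moves cholesterol from the plasma membrane to the endoplasmic reticulum, fell from 9.16, 9.34 and 9.42 to 8.65, 8.76 and 8.82 (-0.57, limma adjusted p = 3.8e-04). *Lrp8*, a receptor of the lipoprotein receptor family, fell by 0.35, and the lysosomal lipase *Lipa* by 0.15 (limma adjusted p = 0.047). *Erlin2* and *Lipa* both failed when any wild-type array or dKO replicate 2 or 3 was left out, with limma adjusted p up to 0.14 and 0.17.

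**Figure D4:**
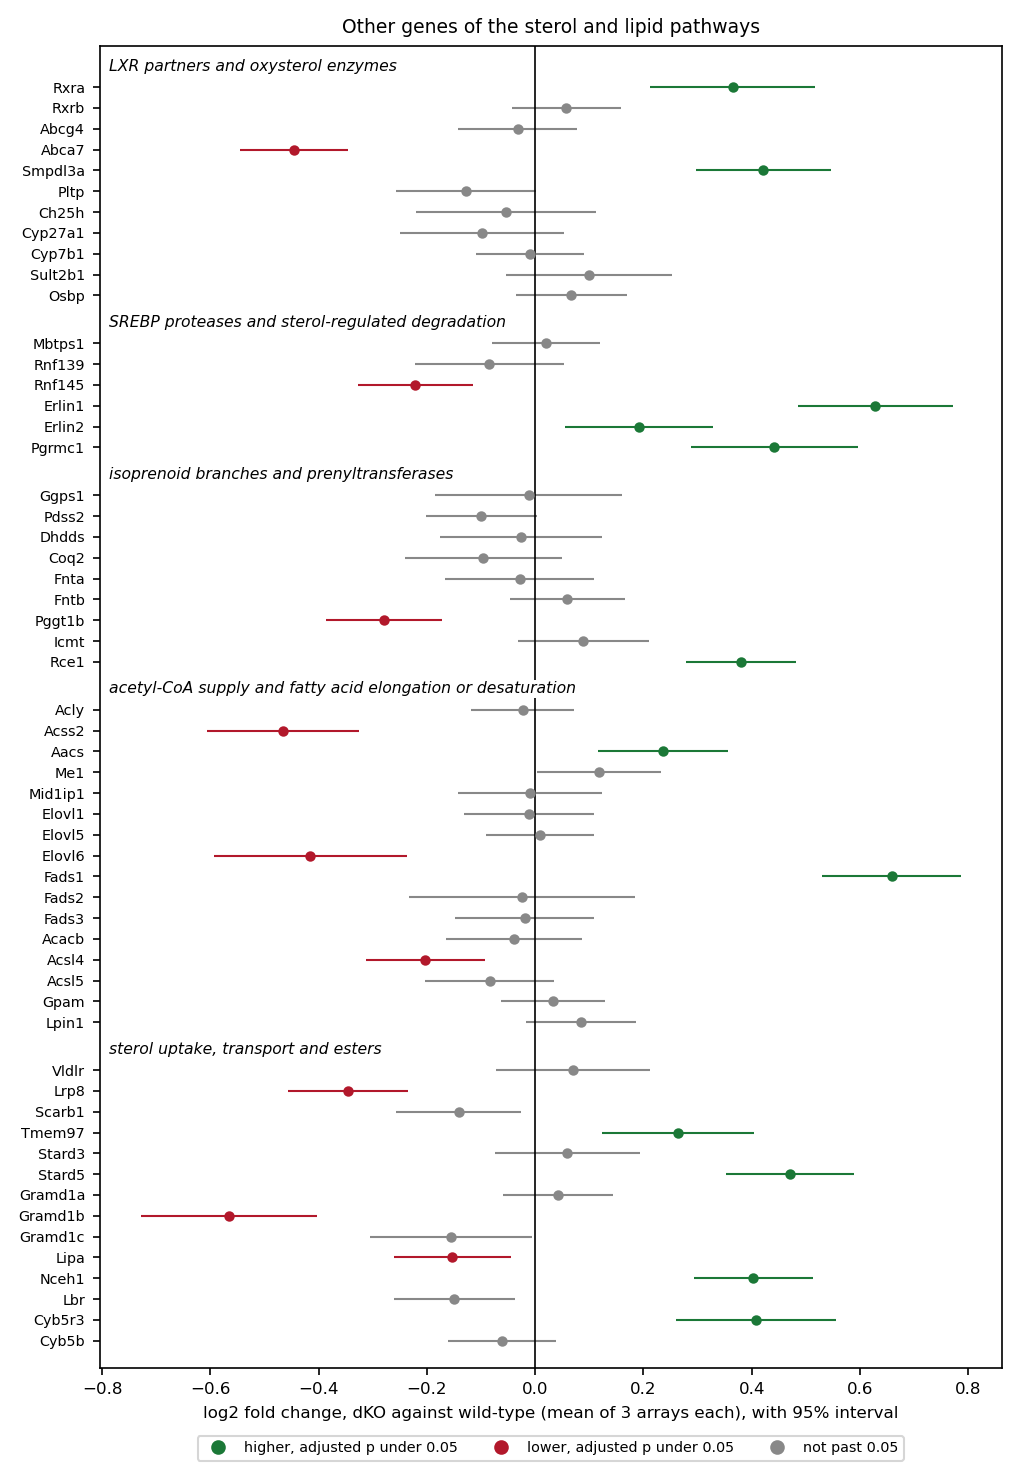
Log2 fold change of dKO against wild-type cells for 56 other genes of the sterol and lipid pathways, grouped by role, with points for the difference of means of 3 arrays each, bars for the 95% interval from limma, and colour for direction among genes with an adjusted p under 0.05. *Fads1*, at 0.66, and *Gramd1b*, at -0.57, mark the ends of the range, and each group holds genes on both sides of 0.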

How the data were processed

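Total RNA of sorted OT-II CD4 SP thymocytes was hybridized by the authors to Affymetrix arrays, a Mouse Gene 1.0 ST type in the Methods and an Exon type in the series record. The deposited values are log2 signals that the submitters' processing notes credit to Partek and RMA (versions not given in the sources used here), which corrects background, evens out the arrays and gives 1 value per row. A shift shared by most genes would thus be hidden, and differences of dim genes are compressed. Array medians lay between 6.27 and 6.32, and the number of arrays limits the precision.

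Of 25254 rows, 21496 carried 1 gene symbol in the array annotation, 1565 several and 2193 none, and the last 2 kinds were left out. Symbols were updated through the RefSeq table (21415 found, 81 kept). For 938 genes with several rows the brightest row by mean was kept, which left 19752 genes. Values were fitted with limma 3.58.1 in R 4.3.3, with genotype as the only term, and adjusted by Benjamini-Hochberg over all genes at a threshold of 0.05. The fit was checked on simulated data with 3 arrays per genotype. It recovered 98% of genes changed by 1 log2 unit, 76% of those changed by 0.5 and 14% of those changed by 0.25. A gene that did not pass may thus have changed by a small amount. Motifs and counts were computed in Python 3.11.15 with pandas 2.3.3, and figures drawn with matplotlib 3.10.9.

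The members, the wider lists and the markers were chosen with earlier results of these data known, so lists were described by counts and medians and not tested. Values of every array were given for each member past the threshold and for the LXR, SREBP and INSIG genes. From each wider list up to 4 genes of smallest p were named, and all genes of a count of 5 or fewer. *Lpcat3*, *Msmo1*, *Npc2*, *Rxrb* and the marker genes were picked after their values were seen. So were the array values of *Rxra*, *Abca7*, *Erlin1*, *Fads1*, *Acss2* and *Gramd1b* and the printed promoters of *Mvk*, *Ebp*, *Srebf2* and *Insig1*. Alternatives were quantile and cyclic loess normalization of the values, the brightest 75% or 50% of genes, the mean of a gene's rows, all rows, robust variances with an intensity trend, the replicate number as a block, Student's t-test, and each array left out in turn. Some genes of these pathways are not analysed here.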

Additional observations from a re-analysis of the deposited data

How the results depend on the processing

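No called gene changed sign under any of the 15 alternatives it could be fitted in (13 for *Scd1*, which the filters on dim genes removed), and 5 of the 13 called genes passed under all of them. With Student's t-test 5 of the sterol genes were higher and 1 lower, 7 of the wider list were higher and 7 lower, and 1392 of all genes were higher and 1173 lower. With each array left out in turn, 6 to 7 of the sterol genes were higher and 3 to 4 lower. Of the genes that did not pass, *Lpcat3*, *Msmo1* and *Npc2* passed under some alternatives, and 7 changed sign around 0. *Mylip* was -0.013 after cyclic loess normalization and ran from -0.0043 to 0.0061 with an array left out. *Srebf1* was -0.0043 after quantile and -0.015 after cyclic loess normalization, and ran from -0.013 to 0.071 over the omissions. *Scap* was 0.0024 after quantile normalization and ran from -0.024 to 0.0097. The omissions gave -0.083 to 0.021 for *Mvd*, -0.12 to 0.010 for *Scd2*, -0.10 to 0.018 for *Acaca* and -0.0056 to 0.11 for *Npc1*. The cause of these changes was not tested.

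With the replicate number as a block, 8 of the sterol genes were higher and 4 lower, 12 and 8 of the wider list, and 4544 of all genes were called. *Scd1*, *Stard4* and *Lipa* then missed the threshold (limma adjusted p = 0.068, 0.055 and 0.063) and *Lpcat3* passed it (0.027). Deviations of same-numbered arrays correlated at 0.10, 0.02 and 0.07, and 5 of the 6 arrays correlated best with their own number, a hint from the data of a weak pairing that no label gives.

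Each genotype had 3 arrays, and the smallest change called varied with the spread of each gene. Differences of dim genes, such as *Scd1*, are compressed.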
